A study of Anguilla japonica with 6 samples.

Results

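Serine-type peptidases were described in gonads of the Japanese eel (Anguilla japonica), comparing ovary with testis. Members were all full-length transcripts whose annotation carried either of the Gene Ontology terms for serine-type peptidase or serine-type endopeptidase activity. These were 271 of 35011 transcripts. Summed by the gene symbol of their best SwissProt hit, with transcripts without a symbol kept single, they made 121 of 13011 units, which are called genes below. Of the 121, 95 had a symbol and 26 were single transcripts.

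The tissue came from 3 females and 3 males reared in aquaculture, at the silver stage that precedes the spawning migration. Their gonads had differentiated, were still immature, and had received no hormone. Illumina reads of each gonad were counted on full-length transcripts from PacBio long reads of both tissues, and the members took 69432 to 78544 counts per ovary library and 31580 to 42285 per testis library. Each library came from 1 fish, and whole gonad was sequenced, so fewer cells of a type and less RNA per cell cannot be told apart. Values are FPKM (fragments scaled to transcript length and library size), given for libraries 1, 2 and 3 of each tissue. Fold changes are log2, testis over ovary, with the Benjamini-Hochberg adjusted p of edgeR's quasi-likelihood test over all 12211 genes tested. A gene was called at an adjusted p under 0.05. Values after ± are approximate standard errors unless marked SD. The test gives none, so they were taken as the absolute log2 fold change over the square root of the test's F statistic.

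Serine peptidases cut proteins with an activated serine in their active site. The trypsin-like family includes the digestive enzymes, the complement and clotting factors and several proteases anchored in the cell membrane, most of them made as inactive precursors. Subtilisin-like convertases cut precursors of hormones, growth factors and receptors in the secretory pathway, prolyl oligopeptidases and the carboxypeptidases of family S28 trim peptides next to proline, rhomboids cut inside membranes, and Lon degrades proteins in mitochondria. In fish ovaries, proteases and their inhibitors are known for their parts in growth of the follicle, yolk processing and ovulation.

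The label held for only some of the members. By name, 47 genes with 138 transcripts were peptidases or their inactive homologs. A further 40 genes with 70 transcripts were named as esterases, lipases or thioesterases, which share the prolyl oligopeptidase fold domain through which many of them carry the term. The remaining 34 genes with 63 transcripts were named for another function, such as nanog or pim1, or not named. The deposited protein domain annotation placed a trypsin domain on 60 transcripts, a subtilase domain on 27, a rhomboid domain on 23 and the N-terminal domain of family S49 on 33. The terms did not reach every serine peptidase either, since none of the 8 transcripts with a carboxypeptidase domain of family S10 carried them.

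Of the 121 genes, 108 passed the filter on low counts. Among these, 34 were called higher in ovary (31.5%) and 14 higher in testis (13%), and 60 were not called. Over all genes tested, 21.4% were called higher in ovary and 25.2% higher in testis. The median log2 fold change was -0.76 for the members and 0.11 for all genes. In 35 members every ovary lay above every testis by FPKM and in 25 every testis above every ovary, against 24.1% and 35.4% of all genes. Fitted on log2(FPKM + 1) with limma, 27 members were called in ovary and 17 in testis. Over all genes that fit called 2269 in ovary and 3351 in testis, of 12952 tested. For the named peptidases alone, 18 of 44 tested were called in ovary (40.9%) and 6 in testis (13.6%), with a median of -0.94. Without ovary 2 their ovary count was 11. Ovary calls over all genes fell as well in that fit, from 2615 of 12211 tested to 1907 of 12423. Esterases, lipases and thioesterases had 9 ovary and 2 testis calls among 32 tested, with a median of -1.24. Of these 32, 10 were single carboxylesterase-like transcripts without a symbol, with a median of -4.43. The 22 genes with a symbol had a median of -0.93. Genes with other names had 7 and 6 calls among 32 and a median of 0.17. The transcripts that reads were counted on were not built evenly from the tissues. Ovary long reads gave 80.4% of the transcripts of named peptidases, 77.1% for esterases and the like and 63.5% for other names. Over all transcripts it was 64.4%. The part of this in the calls was not tested.

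**Figure D1:**
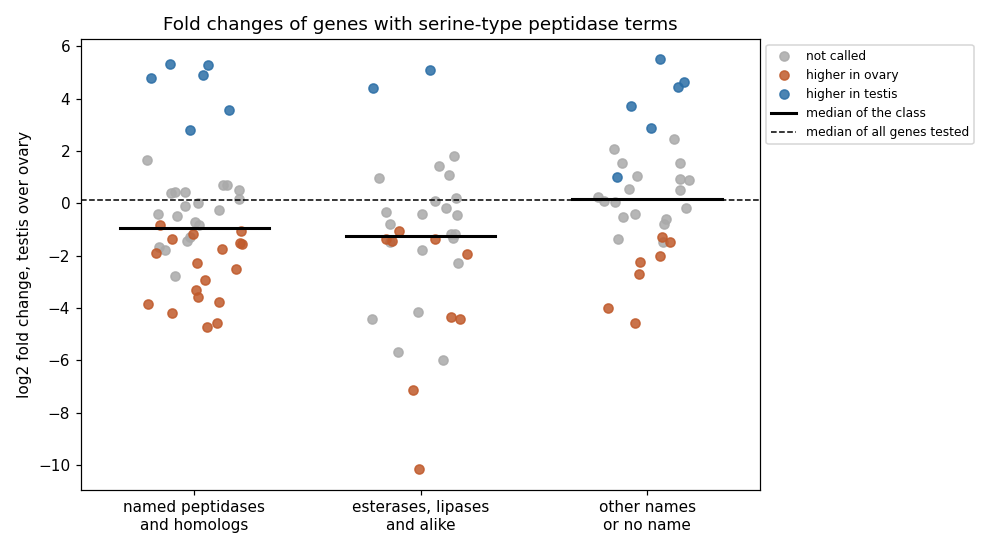
Log2 fold change, testis over ovary, of the 108 tested genes with a serine-type peptidase term, in 3 classes by name. Each point is 1 gene or 1 single transcript without a symbol, coloured where it was called. The bar is the median of the class and the dashed line the median of all genes tested (0.11). The medians are -0.94 for peptidases, -1.24 for esterases and the like, and 0.17 for other names.

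The oocyte markers bmp15, figla, gdf9, zar1 and zp3 were all called in ovary, and 5 of 5 male germ cell and 4 of 4 Sertoli cell markers in testis. Summed oocyte markers still reached 596, 13293 and 4279 FPKM in the testes, against 72698 to 98770 in the ovaries. Most of this sum was zp3, with 572, 13099 and 4190 FPKM in testes 1, 2 and 3. In the same order zar1 had 11.2, 147 and 37.7, figla 8.76, 40.5 and 46.4, and gdf9 0.58, 2.06 and 0.84. The range was narrow for bmp15, at 3.60, 4.77 and 4.13. Testis 1 stood apart from the other testes: its Spearman correlation with them was 0.772 to 0.786 over all genes, against 0.918 between testes 2 and 3. It also held 836 FPKM of smooth muscle markers (50.8 and 157 in the others). The red blood cell markers, 2 of 5 matched, summed to 3727 FPKM in testis 1 and 121 and 144 in the others. Nearly all of this was cahz (3723, 81.0 and 132 FPKM in testes 1, 2 and 3). The other matched marker, alas2, ran the opposite way, with 3.17, 39.6 and 12.2. The leukocyte markers cd74 and coro1a, 2 of 7 matched, summed to 64.2, 63.7 and 28.9 FPKM in the ovaries and 68.8, 352 and 276 in the testes. Most of this was cd74, with 63.9, 63.6 and 28.7 against 59.8, 343 and 266 FPKM, where testis 1 lay within the ovaries. For coro1a testis 1 lay with the other testes instead. That marker had at most 0.27 FPKM in an ovary. In testis 1 it had 8.99, with a mean of 9.53 ± 0.53 in the testes (SD, n = 3). Without testis 1 the members had 38 ovary and 15 testis calls, and the named peptidases 19 and 7. Calls over all genes rose too, to 3039 in ovary and 3177 in testis of 12450 tested. With all libraries they were 2615 and 3078 of 12211. The part of these differences in makeup in the results below was not tested.

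Named peptidases took 0.209%, 0.241% and 0.227% of all counts in the ovaries. In the testes they took 0.106%, 0.104% and 0.120%. Every ovary lay above every testis, the pattern with the smallest p that an exact two-sided permutation test of 3 against 3 allows (p = 0.1). Among their families, the S28 carboxypeptidases took 0.0348%, 0.0372% and 0.0329% of counts in the ovaries against 0.00466%, 0.00890% and 0.00982% in the testes. Rhomboids took like shares, 0.0190% on average in ovary and 0.0186% in testis, with overlapping libraries (exact permutation p = 0.8). The clotting, plasminogen activator and HGF group overlapped as well (exact permutation p = 0.7), since 1 member was high in ovary and 3 in testis. In the S28 family and the other 7 families all ovaries lay above all testes (exact permutation p = 0.1 in each, unadjusted over 10 families).

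**Figure D2:**
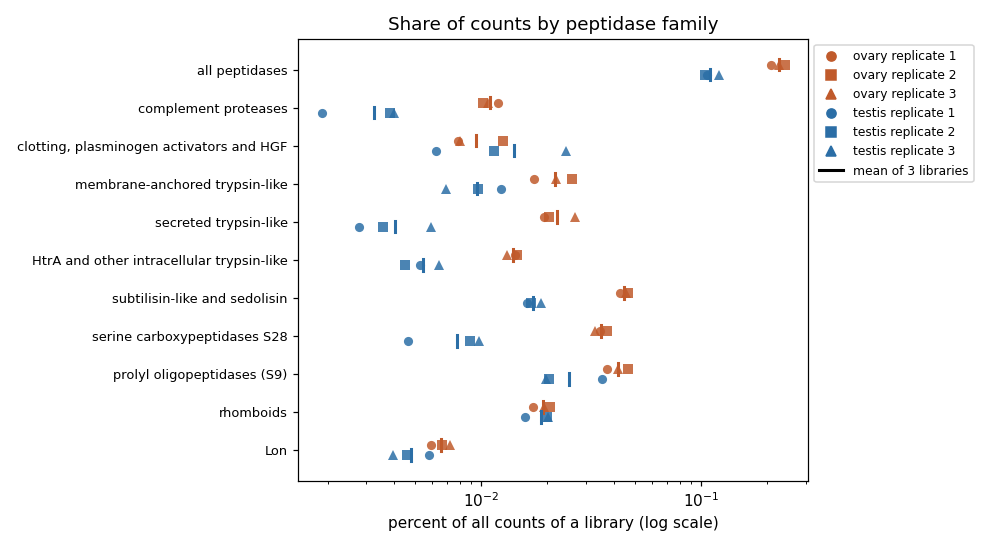
Percent of all counts of a library, on a log scale, taken by the named peptidases and each of their 10 families. Symbols are single libraries and bars the mean of 3. The ovary libraries lie above the testis libraries in every family but the rhomboids and the clotting, plasminogen activator and HGF group.

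Complement proteases. Complement factor B, cfb, is the protease of the alternative pathway convertase. Its FPKM were 34.7, 25.4 and 35.1 in the ovaries and 2.27, 1.93 and 1.93 in the testes. All 3 ovaries were far above the testes, which hardly differed from each other. The log2 fold change was -4.17 ± 0.31 (adjusted p = 0.000736), the smallest adjusted p among the members. Factor D, cfd, which in mammals cuts factor B when it is bound to C3b, ran the other way at a low level. It had 0.07, 0 and 0.03 FPKM in the ovaries and 2.68, 1.41 and 0.32 in the testes, did not pass the filter and was not tested. The lectin pathway proteases masp1 and masp2 were not called (adjusted p = 0.627 and 0.179), and their libraries overlapped. None of the 6 hepatocyte markers looked for was matched by symbol in the table, so a part of liver RNA in these levels was not tested.

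Other complement genes, from a list of 31 symbols of which 11 were tested, had 4 testis calls (36.4%) and 1 ovary call (9.09%). Over all genes tested the shares were 25.2% and 21.4%. Their median was 1.83 on the log2 scale. Complement c4 (log2 fold change 5.79, adjusted p = 0.0012), the terminal component c8b (5.24, adjusted p = 0.00394) and the regulator cfh (2.05, adjusted p = 0.00565) were higher in testis. The membrane regulator cd46 was higher in ovary, with 9.03, 10.6 and 13.9 FPKM against 2.54, 1.68 and 0.92 (log2 fold change -2.99, adjusted p = 0.00614). Thus cfb and cd46 were high in the ovaries, and c4, c8b and cfh in the testes.

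Clotting-type proteases, plasminogen activators and HGF. Hepatocyte growth factor, hgf, is a homolog of plasminogen without protease activity and the ligand of the receptor met. It stood at 19.98, 28.2 and 21.5 FPKM in the ovaries and 0.41, 1.32 and 1.55 in the testes. The tissues did not overlap, and the log2 fold change was -4.58 ± 0.56 (adjusted p = 0.00158). The receptor met was low in both tissues, at 1.38, 1.8 and 0.68 against 0.25, 3.02 and 3.97 FPKM, and was not called (adjusted p = 0.582). Its relative mst1r, the receptor of macrophage-stimulating protein, had 1.34, 2.04 and 2.37 FPKM in ovary against 0.10, 0.36 and 0.19 in testis (log2 fold change -3.37, adjusted p = 0.0113, and -4.05 without testis 2).

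Tissue-type plasminogen activator, plat, which converts plasminogen to plasmin, had the opposite pattern. It was at 0.35, 0.61 and 0.26 FPKM in the ovaries and 6.99, 28.5 and 20.1 in the testes, with every testis above every ovary (log2 fold change 5.29 ± 0.72, adjusted p = 0.00206). Urokinase-type activator, plau, was not called (adjusted p = 0.567): 1.07, 7.30 and 1.75 FPKM in ovary and 21.4, 2.92 and 4.51 in testis. Its high value in testis 1 came mostly from 1 testis-built transcript with 18.5 FPKM there and 1.38 and 1.71 in the other testes. A pair of transcripts without a symbol, whose protein hits were clotting factor X-like, was also higher in testis. Transcript 13444 had 0.14, 0.25 and 0.42 against 4.13, 7.72 and 16.8 FPKM (log2 fold change 4.90, adjusted p = 0.00467; 4.15 without testis 3). Transcript 14909 had 0.38, 0.84 and 0.58 against 2.5, 8.76 and 74.0 FPKM (log2 fold change 5.33, adjusted p = 0.0158), and the fold change fell to 2.96 without testis 3. Its call was lost when any single ovary was left out (adjusted p 0.0501 to 0.0635). Testis 3 was also the library with the highest sums of Sertoli cell markers (334 FPKM, against 120 and 131 in the other testes) and of steroidogenic cell markers (205 against 45.7 and 64.9), whose part was not tested.

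Of the receptors that take up or respond to proteases, 8 were tested, with 3 calls in each direction (37.5%). Over all genes tested the shares were 25.2% in testis and 21.4% in ovary. The endocytic receptors lrp1 and lrp1b, which in mammals clear plasminogen activators bound to inhibitors, were higher in testis, lrp1 at 1.77, 1.07 and 1.19 against 9.33, 19 and 22.6 FPKM (log2 fold change 3.10, adjusted p = 0.00262). For lrp1b the log2 fold change was 4.55 (adjusted p = 0.0023). Lipoprotein receptor vldlr was higher in ovary (log2 fold change -4.54, adjusted p = 0.000819). Among 5 other clotting genes only kng1, the kininogen, was called (higher in testis, log2 fold change 2.32, adjusted p = 0.0463), and its value fell to 1.02 without testis 3 (adjusted p = 0.147). That call was also lost without any 1 of the ovaries or testis 2 (adjusted p 0.0560 to 0.143).

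Trypsin-like proteases of the membrane and the secreted space. Among the secreted proteases prss27, known in mammals as pancreasin or marapsin, was the most abundant, at 81.0, 86.8 and 113 FPKM in the ovaries and 2.41, 4.82 and 5.37 in the testes. The lowest ovary was far above the highest testis, with a log2 fold change of -4.73 ± 0.44 (adjusted p = 0.000928). The elastase cela2a had 10.8, 18.6 and 5.32 FPKM in ovary and 0.42, 0.85 and 1.67 in testis (log2 fold change -3.77 ± 0.85, adjusted p = 0.0109, and -4.44 without testis 3). An unnamed trypsin-domain transcript, 53424, had 19.8, 23.4 and 11.2 against 1.0, 1.44 and 2.02 FPKM (log2 fold change -3.84, adjusted p = 0.00381). Ovaries and testes did not overlap in any of these genes. Of 7 pancreas markers only cel was matched, and it ran the other way, with 0.64, 2.08 and 0.15 FPKM in ovary and 14.6, 5.73 and 19.5 in testis. The other secreted members prss23, prss33 and transcript 42419, whose best hit was chymotrypsin B, were not called (adjusted p 0.0632 to 0.776).

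Matriptase, st14, is a membrane-anchored protease of epithelia that in mammals activates other proteases, pro-HGF and protease-activated receptor 2. It had 19.1, 33.7 and 35.1 FPKM in the ovaries and 3.0, 7.59 and 3.68 in the testes, with no overlap (log2 fold change -2.93 ± 0.48, adjusted p = 0.0036, and -3.52 without testis 2). Its mammalian inhibitor spint1, also called HAI-1, stood at 50.0, 51.1 and 40.8 against 1.75, 13.9 and 15.8 FPKM (log2 fold change -2.38, adjusted p = 0.0358). The receptor f2rl1, which is protease-activated receptor 2, was at 104, 124 and 112 against 1.85, 12.7 and 21.7 FPKM (log2 fold change -3.56, adjusted p = 0.0114, and -4.22 without testis 3). All 3 genes were thus higher in every ovary than in every testis, and spint1, f2rl1, met and plau were chosen for naming after their values were seen. The spint1 call was lost in 5 of the 6 fits without 1 library (adjusted p up to 0.0916). Epithelial markers ran the other way: cdh1, krt18 and krt8, 3 of 4 matched, summed to 236, 174 and 156 FPKM in the ovaries and 515, 1014 and 1642 in the testes. Of these, krt18 and krt8 were called in testis (log2 fold changes 4.7 and 2.84) and cdh1 was not called.

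Of the other membrane proteases, tmprss13 had all ovaries above all testes, at 8.26, 8.61 and 5.10 against 0.12, 2.14 and 1.52 FPKM, and missed the threshold (log2 fold change -2.76, adjusted p = 0.0522). Both tmprss7 and tmprss9 overlapped between tissues. The most abundant of them, tmprss9, had 26.7, 31.9 and 29.2 against 46.6, 19.1 and 14.8 FPKM, with 1 of its transcripts at 43.0 in testis 1 and 3.10 and 1.52 in testes 2 and 3. Hepsin, hpn, was at most 0.56 FPKM in every library and was not tested.

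**Figure D3:**
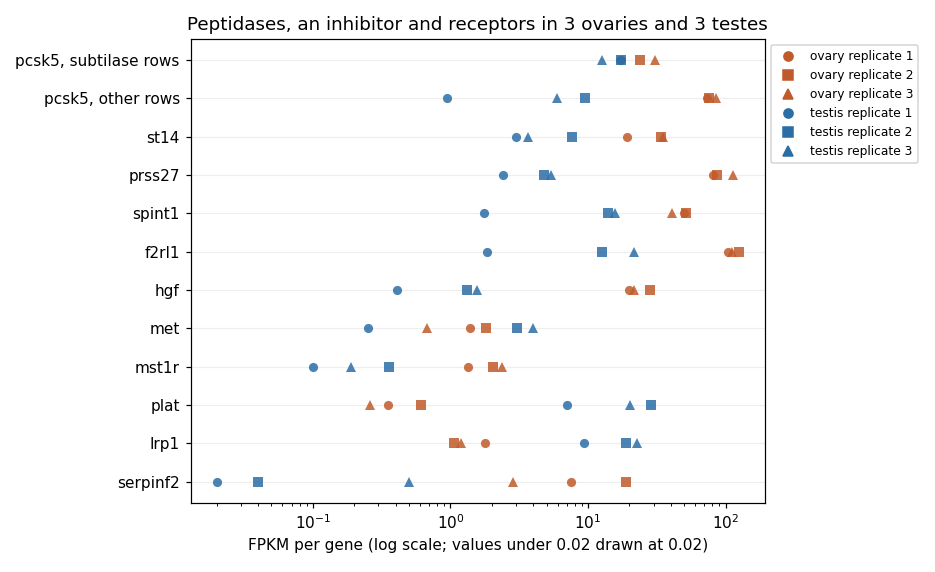
FPKM per gene, on a log scale, of peptidases with an inhibitor and receptors, in 3 ovaries (orange) and 3 testes (blue). Matriptase (st14), prss27, spint1, f2rl1, hgf and mst1r are higher in every ovary, plat and lrp1 in every testis, and met overlaps. The upper rows show the pcsk5 transcripts with and without a subtilase domain.

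Inhibitors of serine peptidases were taken from lists of 25 serpins and 36 other inhibitor symbols. The serpins were listed by family, and not every member of that list inhibits peptidases. Of 9 serpins tested, 3 were called in testis (33.3%) and 1 in ovary (11.1%), against 25.2% and 21.4% of all genes tested. Their median was 0.53 on the log2 scale. The testis calls, by log2 fold change, were serpinh1, a collagen chaperone without inhibitory activity (3.09, adjusted p = 0.0113), serpinf1 (3.32, adjusted p = 0.0371) and serping1, the inhibitor of complement C1 proteases (2.25, adjusted p = 0.0389). For serpinf1 the tissues overlapped, with 2.16, 5.11 and 0.95 FPKM in the ovaries and 3.3, 40.0 and 50.5 in the testes. Without testis 3 serpinh1 was at 2.12, and serpinf1 and serping1 lost their calls (adjusted p = 0.105 and 0.0993), as they did without ovary 1, ovary 3 or testis 2, and serpinf1 without ovary 2 (adjusted p up to 0.134). Without ovary 2 serpinf1 was at 4.06. Serpinf2, the plasmin inhibitor, had 7.5, 19 and 2.86 FPKM in ovary and 0, 0.04 and 0.5 in testis (log2 fold change -6.16 ± 1.5, adjusted p = 0.0148), and it was lost without ovary 2 (adjusted p = 0.0518) or testis 2 (0.0501). Its log2 fold change ran from -9.09 (without testis 3) to -5.34 (without ovary 2), and was -5.57 without testis 1. Of 12 other inhibitors tested, 5 were called in testis (41.7%) and 1, spint1, in ovary (8.33%), with a median of 1.48. Those with the smallest adjusted p were fstl3, reck, fstl1 and fsta (log2 fold changes 6.23, 1.69, 2.05 and 4.33). Values moved to 4.84 for fstl3 without testis 3, 2.86 for fstl1 without ovary 1 and 5.71 for fsta without ovary 3. Calls were lost for fstl1 without ovary 2, ovary 3 or testis 3 (adjusted p up to 0.0749) and for fsta without ovary 1, testis 2 or testis 3 (up to 0.0998). Their list is mixed: reck is an inhibitor of metalloproteases, and the follistatin-like proteins carry Kazal-type folds but are known for binding growth factors of the TGF-beta family.

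Proteases of mitochondria and peroxisomes with a trypsin or Lon fold. The peroxisomal processing protease tysnd1 had 51.1, 52.9 and 58.0 FPKM in the ovaries and 16, 12.1 and 12.7 in the testes. Values were close together within each tissue (log2 fold change -2.27 ± 0.25, adjusted p = 0.00117). Mitochondrial Lon, lonp1, had 9.4, 12 and 12.6 against 6.60, 5.05 and 4.20 FPKM (log2 fold change -1.38 ± 0.30, adjusted p = 0.00989). Its peroxisomal paralog lonp2 was not called, at 5.28 ± 0.75 against 6.69 ± 1.01 FPKM (SD, n = 3, adjusted p = 0.699). The intermembrane space protease htra2 missed the threshold, with 17.4, 16.5 and 6.34 against 3.49, 3.18 and 8.34 FPKM (adjusted p = 0.0521), and htra1b was not called. The antiviral protease fam111a had no counts in the ovaries and 14.2, 1.79 and 0 FPKM in the testes. With the ovaries set to a floor of 3 counts in all, it was at least 83.3-fold higher, a value that rests on testis 1. Among 16 partners in mitochondria and the endoplasmic reticulum, 13 were not called and the median was -0.04. Calls were 1 in testis (6.25%) and 2 in ovary (12.5%), against 25.2% and 21.4% of all genes tested. The inner membrane protease yme1l1, a metalloprotease, and stoml2, which binds it with parl in mammals, were higher in ovary (-1.35, adjusted p = 0.007, and -0.85, adjusted p = 0.0403), and srebf2 in testis (2.47, adjusted p = 0.0138). By left-out libraries, stoml2 was not called without any 1 of the ovaries, testis 2 or testis 3 (adjusted p 0.0564 to 0.103), and srebf2 without ovary 1 or 2 (0.0568 and 0.0540).

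Subtilisin-like convertases and tripeptidyl peptidases. Of 6 genes tested, 4 were called in ovary (66.7%) and 1 in testis (16.7%), against 21.4% and 25.2% of all genes tested. Convertase pcsk6, also called PACE4, had 17.2, 18.1 and 13.7 FPKM in the ovaries and 0.19, 3.21 and 2.53 in the testes, without overlap (log2 fold change -3.31 ± 0.88, adjusted p = 0.02). Without testis 2 the log2 fold change was -3.90, and the call was lost without any 1 of the ovaries or testis 3 (adjusted p 0.0518 to 0.0576). The ubiquitous convertase furin had 16.7, 16.9 and 26.4 against 13.2, 7.92 and 4.90 FPKM, where testis 1 came close to the ovaries (log2 fold change -1.5, adjusted p = 0.0253). It was not called without ovary 3 or testis 2 (adjusted p = 0.0657 and 0.0562). In contrast, pcsk4, known in mammals as the convertase of male germ cells, had 0.19, 0.06 and 0.05 FPKM in ovary and 5.60, 2.79 and 2.22 in testis (log2 fold change 4.77 ± 0.90, adjusted p = 0.00595, and 5.52 without ovary 1). Beside it, the sperm membrane and acrosome genes spaca4, zan, dcst2 and dcst1 were higher in testis (log2 fold changes 5.40, 3.24, 4.89 and 2.87), 4 of 8 tested in that list. Its calls made 50% in testis and 25% in ovary, against 25.2% and 21.4% of all genes tested, so its ovary share was near that of all genes. Without testis 2 spaca4 was at 4.53, and without ovary 1 dcst2 and dcst1 were at 6.21 and 3.53. The egg coat genes zp2 and zp3 were its ovary calls, both lost without testis 3 (adjusted p = 0.0545 and 0.118), and zp3 also without any 1 of the ovaries (up to 0.0911). Without testis 2 their log2 fold changes were -9.48 and -4.96, from -6.79 and -3.73.

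The transcripts of pcsk5 fell into 2 kinds. The 8 with a subtilase domain, which carry the terms, summed to 17.3, 23.6 and 30.9 FPKM in the ovaries and 17.2, 17.4 and 12.6 in the testes. These overlapped, and the log2 fold change was -1.05 ± 0.34 (adjusted p = 0.0394, up to 0.178 in alternatives). The call was kept without ovary 1 only, among the fits that left out 1 library (adjusted p 0.0548 to 0.108 in the others). Another 7 transcripts with the same symbol lack that domain, 6 of them with the furin-like cysteine-rich region that lies behind the catalytic part of this convertase. They summed to 73.2, 75.5 and 84.9 FPKM in the ovaries and 0.95, 9.49 and 5.97 in the testes (log2 fold change -4.0, adjusted p = 0.00744, and -4.7 without testis 2). The ratio of the second kind to the first was 4.23, 3.19 and 2.75 in the ovaries and 0.0553, 0.545 and 0.476 in the testes, without overlap (exact two-sided permutation p = 0.1, the smallest possible). All transcripts of the second kind were built from ovary long reads. Of the first kind 7 were, and 1 was built from testis long reads, with 9.98 FPKM in testis 1. The part of this in the ratio was not tested. Summing all rows gave a log2 fold change of -2.56 (adjusted p = 0.00189). Whether the second kind are full messages or pieces of longer ones was not tested, and this split was noticed after the values were seen.

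Tripeptidyl peptidase 1, tpp1, is a lysosomal enzyme of the sedolisin family. It was abundant in the ovaries, at 93.2, 101 and 79.5 FPKM, and lower and spread in the testes, at 5.40, 16.9 and 34.0 (log2 fold change -2.49 ± 0.64, adjusted p = 0.0182). Without testis 3 the log2 fold change was -3.28, and the call was lost without ovary 1 or testis 2 (adjusted p = 0.0537 and 0.0655). Cytosolic tpp2, which was higher in every testis by FPKM, was not called (4.52, 4.26 and 5.79 against 9.72, 7.10 and 6.91, adjusted p = 0.277).

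Carboxypeptidases of family S28 and prolyl oligopeptidases. The most abundant named peptidase of the ovary had its best hit in a putative serine protease of Caenorhabditis elegans, k12h4.7. It stood at 151, 192 and 182 FPKM in the ovaries and 9.85, 24.5 and 23.6 in the testes. The tissues were widely apart, with a log2 fold change of -3.57 ± 0.44 (adjusted p = 0.00164). Dipeptidyl peptidase 7, dpp7, a lysosomal enzyme, had 34.9, 36.6 and 29.7 against 9.98, 21.2 and 21.6 FPKM (log2 fold change -1.16 ± 0.38, adjusted p = 0.0401), a call lost in 10 alternatives (adjusted p up to 0.110). Prolylcarboxypeptidase, prcp, was not called (adjusted p = 0.885).

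Lysosomal serine carboxypeptidases of family S10 lack the terms and were looked up after the values were seen. Of these, ctsa and cpvl were higher in ovary. The former had 142 ± 16.6 against 21.1 ± 5.70 FPKM (SD, n = 3, edgeR adjusted p = 0.00147) and the latter 92.1 against 13 (adjusted p = 0.000928). The S10 member scpep1 was 5.73 against 18.0 FPKM and not called (adjusted p = 0.0531). They came from a list of serine peptidases without the terms. Of its 7 tested genes, 4 were called in ovary (57.1%) and 1 in testis (14.3%), against 21.4% and 25.2% of all genes tested. The ovary calls were ctsa, cpvl, sec11a and the pcsk5 transcripts without a subtilase domain described above, which are no separate result. For sec11a (log2 fold change -0.85, adjusted p = 0.0272) the call was lost in 9 alternatives. The testis call was clpp (log2 fold change 0.85, adjusted p = 0.0477), lost in 11 alternatives. For immp2l every testis lay above every ovary, without a call (adjusted p = 0.102).

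Prolyl endopeptidase, prep, a cytosolic enzyme that cuts short peptides after proline, had 53.2, 57.4 and 51.8 FPKM in the ovaries and 34.6, 9.86 and 9.69 in the testes. Testis 1 lay between the ovaries and the other testes, and the log2 fold change was -1.90 ± 0.51 (adjusted p = 0.0207), or -2.72 without testis 1. It was not called without ovary 2 (adjusted p = 0.0525). Dipeptidyl peptidase 9, dpp9, had the same order, with 13.7, 14.5 and 18.8 against 12.2, 4.7 and 3.04 FPKM (log2 fold change -1.55, adjusted p = 0.0409, and -2.24 without testis 1). It was not called in the fits that left out another library (adjusted p up to 0.0890). Catalytically inactive dpp6, an accessory subunit of potassium channels, ran the other way, with 0.22, 2.10 and 1.56 against 9.13, 12.8 and 9.74 FPKM (log2 fold change 2.78 ± 0.80, adjusted p = 0.0262). Its call was lost without ovary 3, testis 2 or testis 3 (adjusted p 0.0633 to 0.0835). Acylpeptide hydrolase apeh and prepl were not called (adjusted p = 0.0666 and 0.0678).

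Rhomboids. Mitochondrial parl, which cuts pink1, had 61.4, 55.1 and 54.0 FPKM in the ovaries and 34.4, 43.7 and 35.6 in the testes, a small but separated difference (log2 fold change -0.83 ± 0.24, adjusted p = 0.0271) whose call was lost in 8 alternatives (adjusted p up to 0.0930). The inactive rhomboid rhbdf2, a partner of the sheddase ADAM17, had 6.02, 8.42 and 7.74 against 1.98, 1.92 and 3.65 FPKM (log2 fold change -1.74 ± 0.42, adjusted p = 0.0142). It lost its call without ovary 2, ovary 3 or testis 2 (adjusted p 0.0503 to 0.0520). Active rhomboid rhbdd1, of the endoplasmic reticulum, had 0.79, 0.40 and 0.39 against 6.71, 10.7 and 4.94 FPKM (log2 fold change 3.56 ± 0.72, adjusted p = 0.00751). The other 4, rhbdd2, rhbdd3, rhbdf1 and ubac2, were not called.

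**Figure D4:**
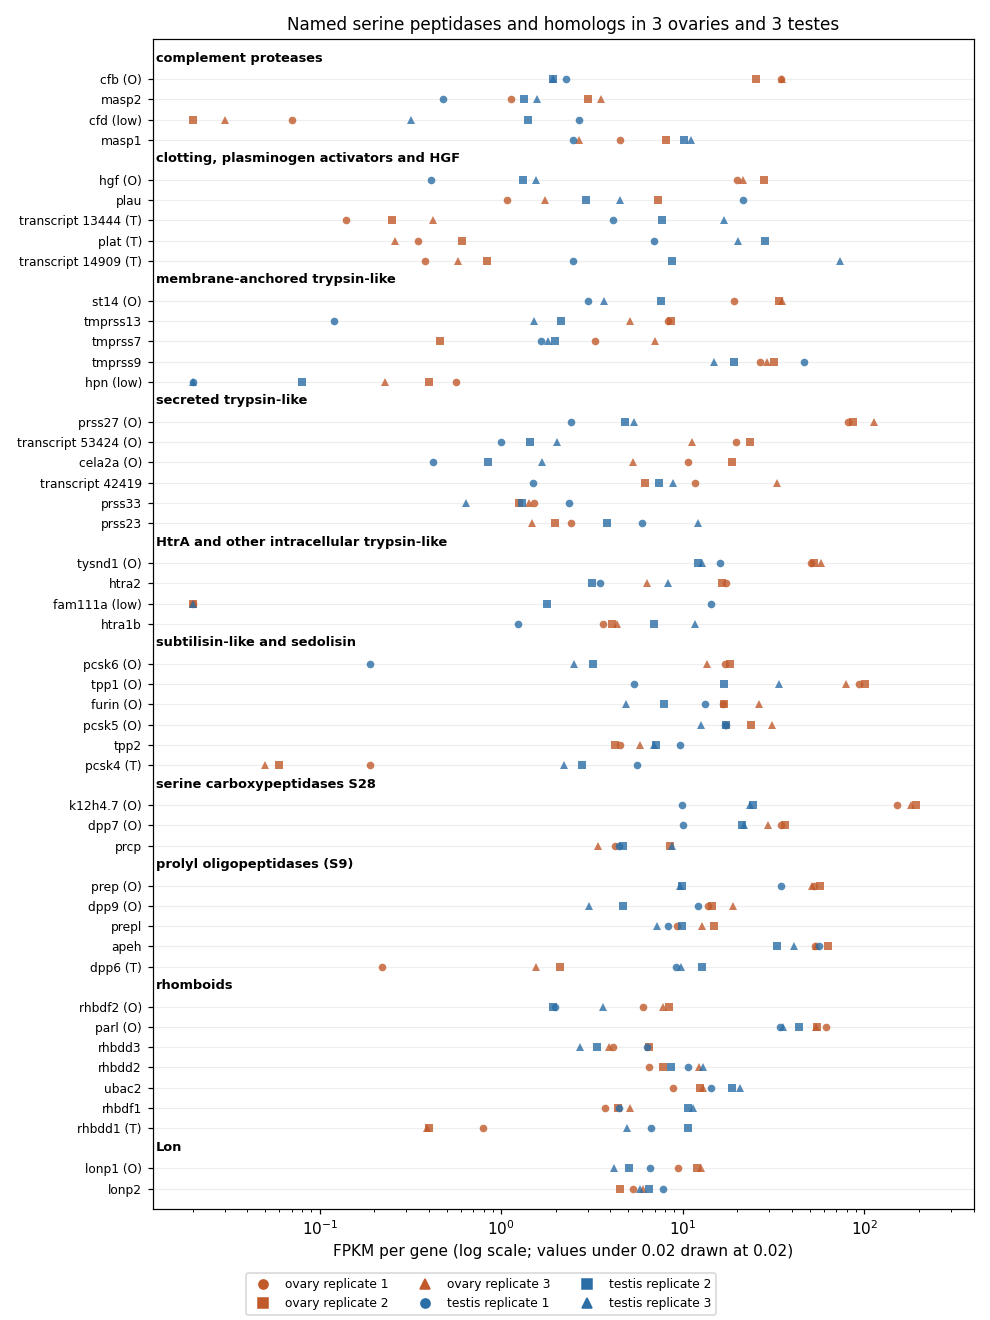
FPKM of each named peptidase or homolog, on a log scale, in 3 ovaries (orange) and 3 testes (blue), grouped by family. (O) and (T) mark genes called in ovary (18) or testis (6), and (low) marks the 3 that did not pass the filter on low counts.

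Esterases and lipases that carry the term. Of 22 genes with a symbol, 6 were called in ovary (27.3%) and 2 in testis (9.09%). Over all genes tested the shares were 21.4% and 25.2%, so the ovary share was near that of all genes. Acyl-protein thioesterase 1, lypla1, which removes palmitate from proteins, had 110, 98.5 and 80.8 FPKM in the ovaries and 33.9, 33.2 and 34.9 in the testes (log2 fold change -1.93 ± 0.24, adjusted p = 0.00173). S-formylglutathione hydrolase, esd, had 99.8, 87.5 and 94.7 against 31.0, 48.7 and 52.0 (log2 fold change -1.38, adjusted p = 0.0108). A gene whose best hit was the plant methylesterase imce had 51.5, 57.3 and 70.1 against 1.60, 3.32 and 4.85 (log2 fold change -4.33, adjusted p = 0.0012). In testis, neutral cholesterol ester hydrolase, nceh1, was high at 20.6, 24.6 and 32.2 FPKM against 1.15, 0.93 and 0.77 (log2 fold change 4.42 ± 0.39, adjusted p = 0.000889). The hydrolase bphl was at 9.65, 17.6 and 27.6 against 0.78, 0.44 and 0.12 (log2 fold change 5.08, adjusted p = 0.00516, and 5.75 without ovary 1). None of these 5 genes overlapped between the tissues. The other ovary calls were the depalmitoylases abhd10 and abhd17c and the monoglyceride lipase mgll (log2 fold changes -1.07, -1.43 and -1.37), each lost in at least 1 fit without 1 library: abhd10 without any 1 of the ovaries or testis 2 (adjusted p up to 0.0809), abhd17c without ovary 2 or testis 2 (up to 0.0788) and mgll without ovary 2 or 3 (up to 0.0670). The remaining 14 genes, among them pla2g7, lypla2, aadac and acot4, were not called.

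A further 18 transcripts without a symbol had carboxylesterases or a medium-chain fatty acyl-CoA hydrolase as their best hit. Together they stood at 93.0, 92.8 and 135 FPKM in the ovaries and 5.08, 7.67 and 11.9 in the testes, a 13-fold difference of means without overlap (exact two-sided permutation p = 0.1, the smallest possible). Ovary long reads gave 17 of the 18 and testis long reads 1, where ovary long reads gave 64.4% of all transcripts. The part of this in the difference was not tested. Single transcripts behaved unlike the sum. One had 45.5 FPKM in ovary 2 and 0 in every other library, another 72.7 in ovary 3 and 0 in the other ovaries, and yet another 37.8 in ovary 1 and at most 0.15 in the other ovaries. Of the 16 with a value in an ovary, 3 were highest in ovary 1, 6 in ovary 2 and 7 in ovary 3. All 16 had at least 30 ovary counts, and in 10 of them (62.5%) 1 ovary held 90% or more of the summed FPKM of the ovaries. At the same count minimum this held for 15% of all member transcripts and 12.6% of all transcripts. Only 10 of the 18 passed the filter, and 3 of these were called, all in ovary (30%, against 21.4% of all genes tested). The called transcripts were 27576 (1.77, 1.19 and 7.60 FPKM in the ovaries, 0 in the testes), 27769 (1.29, 3.23 and 1.01 against 0.05, 0.14 and 0.07) and 30655 (27.9, 0.56 and 0.80 against 0.07, 0 and 0.17). Transcript 30655 lost its call without ovary 1 or any 1 of the testes (adjusted p 0.0540 to 0.111).

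Genes with other names or none. Kinase gene pim1 had 54.2, 10.6 and 7.52 FPKM in the testes and 0.49, 0.25 and 0.52 in the ovaries (log2 fold change 5.50, adjusted p = 0.00387, and 4.14 without testis 1). The lysyl oxidase loxl2b (4.63, adjusted p = 0.00219), samd14 (4.44, adjusted p = 0.0265) and trmt10a (1.01, adjusted p = 0.0494) were also higher in testis by log2 fold change. Leaving out any 1 library ended the call of trmt10a (adjusted p 0.0770 to 0.157), and that of samd14 was lost without ovary 1, testis 2 or testis 3 (0.0515 to 0.0903), with 5.58 without ovary 2 and 3.81 without ovary 3. The pluripotency factor nanog had 81.7, 77.7 and 47.7 FPKM in the ovaries and 0.53, 7.98 and 1.49 in the testes (log2 fold change -4.58, adjusted p = 0.0100, and -6.39 without testis 2 or -5.25 with all rows of the symbol summed). Also higher in ovary were efhd2 (-3.99, adjusted p = 0.00415, and -4.67 without testis 1, but -1.26 with all rows of the symbol summed), the heme A synthase cox15 (-2.71, adjusted p = 0.00213) and tmem126a, the most abundant of this class in ovary, with 123, 165 and 102 against 41.2, 72.2 and 76.1 FPKM (-1.28, adjusted p = 0.0234, lost without ovary 1 or 2). The RNA-binding protein ssb, abundant in both tissues, was not called (adjusted p = 0.0977).

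The other called genes of this class are named after their values were seen. Transcript 22314, which has no SwissProt hit, and 9532, whose best hit was antigen WC1.1, were higher in testis, the first at 29.5, 61.9 and 67.9 against 3.88, 3.63 and 2.62 FPKM (log2 fold change 3.73, adjusted p = 0.00162) and the second at 35.3, 36.4 and 16.3 against 4.67, 3.97 and 1.46 (2.86, adjusted p = 0.0058). Higher in ovary were the endonuclease subunit eme1 (-1.99, adjusted p = 0.00851), unnamed transcript 9709 (-2.24, adjusted p = 0.0333) and thoc3 (-1.47, adjusted p = 0.0400). Both of the latter lost their calls without ovary 1, testis 2 or testis 3 (adjusted p 0.0833 to 0.120), and transcript 9709 also without ovary 3 (0.0622). Among the genes not called, lrrc6 had 0.58, 39.5 and 0.41 FPKM in the ovaries and 42.9, 22.8 and 22.5 in the testes, so that ovary 2 lay at the level of the testes. The ribosome biogenesis factor ltv1 was not tested: it had no counts in the ovaries and 17.5, 0.25 and 0 FPKM in the testes, at least 176-fold higher against the same floor of 3 counts, which rests on testis 1. Only this 1 transcript of ltv1 carries the terms, and all rows of the symbol summed were higher in ovary (log2 fold change -1.45, adjusted p = 0.00496). The single serpine2 transcript with the terms, at most 1.90 FPKM in an ovary and 0 in the testes, was not tested either.

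At the level of transcripts, few calls were made. Of 227 member transcripts tested, 17 were called in ovary and 9 in testis, against 4.4% and 6.26% of all 30738 transcripts tested. Leaving out any library but testis 1 left no member transcript called by edgeR, with 20 to 23 testis-high and 43 to 50 ovary-high transcripts at an unadjusted p under 0.05 in the fits without 1 library, and DESeq2 on all libraries called 27 and 65. Calls over all transcripts in these other fits are not given here. Whether their member counts differ from the table as a whole therefore cannot be told. Called transcripts included prss27, tysnd1, plat, pcsk4, factor X-like 13444 and the main transcripts of prep and k12h4.7.

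The spread among fish was described by the share of the summed FPKM held by the fish with the highest value. For a gene this share cannot exceed the FPKM-weighted mean of the shares of its transcripts. Lower shares for genes than for transcripts are therefore largely set by the measure. For member transcripts with at least 30 ovary counts, the ovary with the highest FPKM held a median of 56.8% of the summed ovary FPKM (n = 246), where equal ovaries would each hold 33.3%. For member genes with several transcripts the median was 39.9% (n = 58), and over all transcripts of the table it was 55.0%. For peptidases the values were 60.4% for transcripts (n = 127) and 38.3% for genes (n = 26). In the testes the gap was smaller, with 53.2% for member transcripts (n = 207) and 46.5% for member genes with several transcripts (n = 58). For peptidases in the testes the values were 54.7% (n = 98) and 47.0% (n = 25). In tpp1, a transcript with 46.6 FPKM in ovary 2 had 2.47 and 0.40 in ovaries 1 and 3, and another had 27.1, 1.61 and 35.2. In hgf, 1 transcript had 11.8 FPKM in ovary 2 and 0 elsewhere, while another had 11.2, 0 and 10.2 in the ovaries. In cfb, 1 transcript had 18.7 FPKM in ovary 1 and at most 0.53 in the others, and another 16.4 in ovary 3 and 0 in the others. Whether such transcripts are alleles, splice forms or near-identical copies that share reads was not tested.

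**Figure D5:**
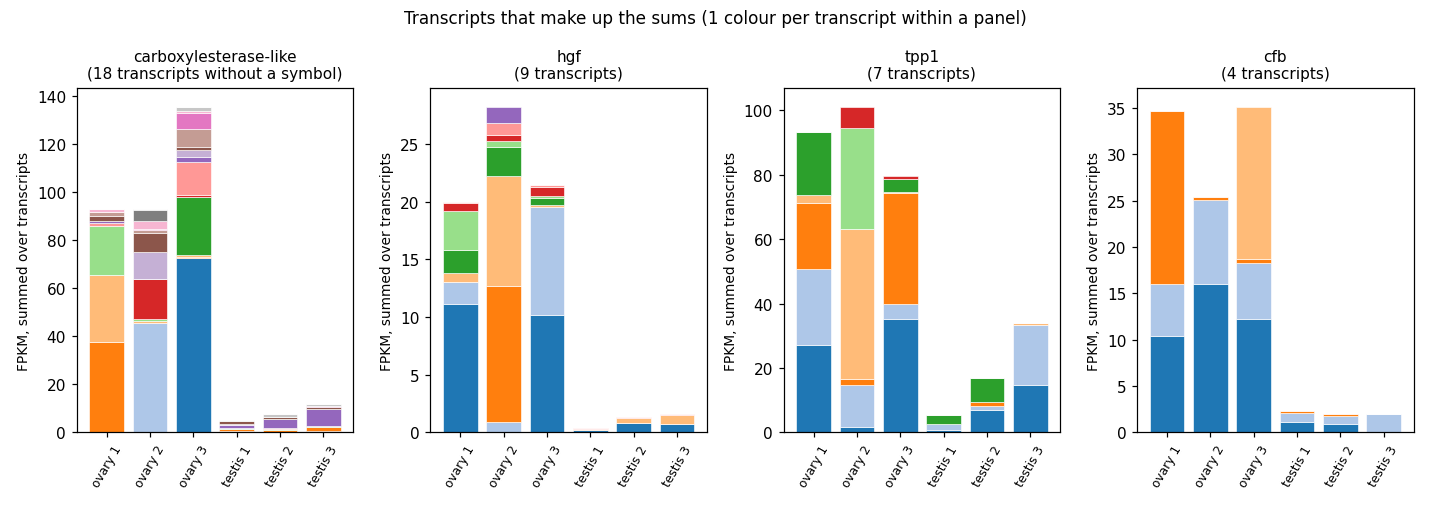
FPKM of single transcripts stacked to their sum in each library, for 18 carboxylesterase-like transcripts, hgf, tpp1 and cfb. Each colour within a panel is 1 transcript. Sums of the 3 ovaries ran from 92.8 to 135 FPKM for the carboxylesterase-like transcripts and from 19.98 to 28.2 for hgf. They ran from 79.55 to 101 for tpp1 and from 25.4 to 35.1 for cfb. The transcripts that make up the sums differ from fish to fish, and a lower spread of sums than of transcripts is largely set by the measure.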

How the data were processed

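RNA of 3 ovaries and 3 testes was extracted with TRIzol and made into libraries with an NEBNext Ultra kit, per the labels' protocols. The submitters' processing notes name featureCounts 1.5.0-p3, HISAT2 2.0.5, fastp and CASAVA 1.8 without roles. Not given in the sources used here were the genome build and the division of reads among transcripts. The deposited table holds estimated counts and FPKM per transcript, made by the authors; of the former, 26.5% to 31.6% per library were whole, and all were rounded for testing. The deposited FPKM are scaled by library size and length, and their sums ran from 721650 to 1312673 per library. Totals ran from 11913969 to 18508307 counts. Counting floors cover counting error only.

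Counts and FPKM were summed per symbol. For a symbol with member rows, only rows with the terms were summed, and 94 other rows of 21 such symbols were kept apart. Genes were tested with edgeR 4.0.16 in R 4.3.3 (TMM, filterByExpr, robust quasi-likelihood F test, tissue as the only term). The fit was also run on simulated counts with the same dispersion for every gene and few changed genes. These settings differ from the data, so that run does not show the error rate of the calls here. Python 3.11.15 with numpy 2.4.6, pandas 2.3.3, matplotlib 3.10.9 and scipy 1.17.1 served for tables and figures. Alternatives were DESeq2 1.42.0, limma 3.58.1 on log2(FPKM + 0.1), log2(FPKM + 1) and log2(TPM + 1), limma-voom, other scalings and filters, a replicate block, other member rules, leaving out each library and, added after the data were seen, summing all rows of a symbol. Shares were compared by exact permutation tests.

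Members, lists, families and tests were chosen with earlier results of these data known. The rule for naming took, among called members without overlap whose higher tissue averaged 1 FPKM or more, the 10 largest rises and the 10 largest falls, the 3 most abundant per tissue, up to 3 called per family, cfb, and up to 4 called genes per list of other genes; those named outside this rule, such as genes not called, were chosen after their values were seen. Families were assigned by hand from names and protein domains. No sequences were used here. Annotation by best hit can join paralogs under 1 name.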

Additional observations from a re-analysis of the deposited data

How the results depend on the processing

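The counts of called genes, 14 in testis and 34 in ovary, stayed within 1.5 times in every alternative except that genes with a catalytic peptidase domain alone gave 8 in testis, and genes with the endopeptidase term alone 21 in ovary. Leaving out 1 library gave 11 to 15 and 23 to 38. Over all genes those fits gave 2040 to 3177 testis and 1907 to 3039 ovary calls. For named peptidases the alternatives gave 5 to 9 in testis and 13 to 22 in ovary, and leaving out 1 library 4 to 7 and 11 to 19. Of 24 called peptidases, 13 were called in every alternative. Calls on member transcripts moved most: 27 testis and 65 ovary with DESeq2, 4 and 5 without a filter, 4 in testis with limma-voom, and 0 to 5 in each tissue when 1 library was left out. How calls over all transcripts moved in these fits is not given here. No member named by the rule changed direction. Genes named in the text that lost a call in 8 or more alternatives were kng1 and trmt10a (12 each), clpp (11), dpp7, pcsk5, serpinf1 and stoml2 (10 each), dpp9, sec11a and transcript 30655 (9 each), and abhd10, parl, thoc3 and transcript 9709 (8 each). The cause was not tested. The difference in the share of counts of all members, -0.161 percentage points, was -0.240 when egg envelope and ribosomal protein genes were left out of the total, and -0.179 to -0.147 without 1 library. Over all genes the median log2 change was 0.11 as reported, 0.32 with upper quartile scaling and -0.11 on log2(TPM + 1), where those of the members were -0.55 and -0.78. Ovaries and testes share only their replicate numbers: same-numbered libraries had correlations of deviations of -0.03, 0.00 and -0.04. With a replicate block, 14 testis and 25 ovary members were called (6 and 13 named peptidases). Over all genes the block gave 2304 testis and 2090 ovary calls of 12211 tested, against 3078 and 2615 without it. In either direction 0 member transcripts were called with the block by edgeR (17 and 43 at an unadjusted p under 0.05). Of the 121 genes, 13 did not pass the filter and were not tested, some for low counts and others, such as ltv1, because few libraries held counts.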
